A study of Caenorhabditis elegans with 63 samples.

Results

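The neuronal microRNA (miRNA) genes of Caenorhabditis elegans, lsy-6, mir-124 and mir-137, were followed through small RNA libraries of worms with altered drsh-1. They are 3 of the 139 miRNA hairpins that the count tables name, and were taken by name, with both arms of each hairpin. The table of NEBNext libraries has 6 rows for them (2 arms of each gene). The table of libraries made with degenerate-base adaptors, called bias-minimized here, has 4, for lsy-6 and mir-124.

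miRNAs are cut from a hairpin in a primary transcript, first by the nuclear enzyme Drosha, encoded by drsh-1, and then by Dicer. One strand, the main arm, is loaded into an Argonaute protein and silences mRNAs that pair with its seed, while the other, starred here as in the files, is mostly discarded. lsy-6 is expressed in very few neurons and is known for setting the left-right difference between the ASE taste neurons, where it represses the transcription factor gene cog-1. mir-124 is conserved from worms to mammals and marks ciliated sensory neurons in the worm. miR-137 is a brain miRNA in mammals. The worm gene with its seed is mir-234, which is active in neurons.

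In the WBcel235 annotation the lsy-6 hairpin (WBGene00003088) lies at V:10647232-10647304 on the plus strand, outside other genes and 89 bp from the coding gene C32C4.3. Its 5p arm spans positions 10647237 to 10647257 and its 3p arm 10647280 to 10647301. The mir-124 hairpin (WBGene00003319) lies at IV:11871738-11871833 on the plus strand, inside an intron of trpa-1, a gene for a cation channel, and in its orientation. Its 5p arm spans 11871755 to 11871777 and its 3p arm 11871798 to 11871818, and a noncoding gene, C29E6.8, overlaps the hairpin on the opposite strand. No source used here says whether reads were counted by strand. No gene named mir-137 is in this annotation, so no position is given for it. mir-137 rows are in the NEBNext table and mir-234 rows in the bias-minimized table. These are the only names that differ, and the other 274 arm names occur with both protocols. Each protocol names 138 hairpins, and both together 139. mir-137 and mir-234 may therefore stand for the same gene. No source used here states this, and the names are kept apart. mir-234 (WBGene00003327) lies at II:14466263-14466358 on the minus strand, where the noncoding gene C13B4.6 overlaps it on the other strand.

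The study asked how a disordered region of Drosha affects miRNAs, in whole worms grown at 20 °C. Wild type worms and the mutants drsh-1 (cdb328) I and drsh-1 (cdb330) I were sequenced with NEBNext as L4 larvae and as Adults and with bias-minimized adaptors as Adults (n = 3 for each of these 9 groups). Adults with drsh-1::gfp and tdp-1::mScarlet, and Adults labelled with that genotype over drsh-1(null), written with a slash, were sequenced with NEBNext (n = 2 each). The other 12 groups, called the mir-80 series (n = 2 or 3), were bias-minimized libraries of a stage that the labels do not give. With drsh-1 intact they were wild type and the mir-80 alleles cdb493, cdb494, cdb495, cdb496 and cdb530. With drsh-1 mutant they carried drsh-1(cdb263 cdb328) with mir-80 intact or with each of the first 4 alleles, and drsh-1(cdb328) with mir-80(cdb530). The mutants are described as deletions, without their positions, and the labels give neither ages in days nor say that replicates came from separate cultures. The p-values then reflect the spread between these libraries only.

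The 22 NEBNext libraries held 1891780 to 5565918 miRNA reads, the 9 bias-minimized Adult libraries 578859 to 2585561 and the 32 libraries of the mir-80 series 155736 to 2355231. Levels are given in CPM, reads per 1000000 miRNA reads, and 3 reads equal 0.539 to 19.3 CPM depending on the library. Fold changes are from edgeR's quasi-likelihood test over all arms of a table with TMM scaling, and an arm was called at a Benjamini-Hochberg adjusted p under 0.05. Of the member rows, 3 of 6 passed the filter on low counts with NEBNext (the 3p arm of each gene), 2 of 4 in the bias-minimized Adults (lsy-6-3p and mir-124-3p) and 3 of 4 in the mir-80 series (with mir-124-5p* added). In whole worms, fewer neurons and less of a miRNA per neuron cannot be told apart.

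The 3p arm was the main product of every gene. lsy-6-5p* had 0 reads in all 22 NEBNext libraries, beside 802 reads of lsy-6-3p, and 13 reads beside 456 (2.77% of the pair) in 10 of the 41 bias-minimized libraries. mir-137-5p* had 11 reads beside 25809 of mir-137-3p, or 0.0426% of the pair. These strands were therefore close to the counting limit in every genotype. mir-124 differed between protocols, with 58 reads of mir-124-5p* beside 405 of mir-124-3p with NEBNext (12.5%) and 133 beside 77959 with bias-minimized adaptors (0.170%).

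mir-124-3p, the strand conserved in animals, was the member that the protocol moved most. In wild type Adults its NEBNext levels were 1.86, 5.01 and 5.16 CPM (5, 13 and 11 reads), and its bias-minimized levels were 897, 768 and 687 CPM (1456, 856 and 716 reads). The ratio of the means, 4.01 and 784 CPM, was 196, the third highest among 206 arms of at least 1 CPM with both protocols, whose median ratio was 1.03 and whose 5th and 95th percentiles were 0.228 and 77.2. lsy-6-3p went the other way, from 5.44 CPM with NEBNext to 2.08 CPM, a ratio of 0.383. Levels of these arms are therefore compared within a protocol only. The labels name each bias-minimized Adult library as the NEBNext Adult library of the same genotype and replicate number, with a suffix. They do not state that both protocols were run on the same RNA. The Adult comparisons with each protocol are therefore given side by side and not counted as separate worms.

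**Figure D1:**
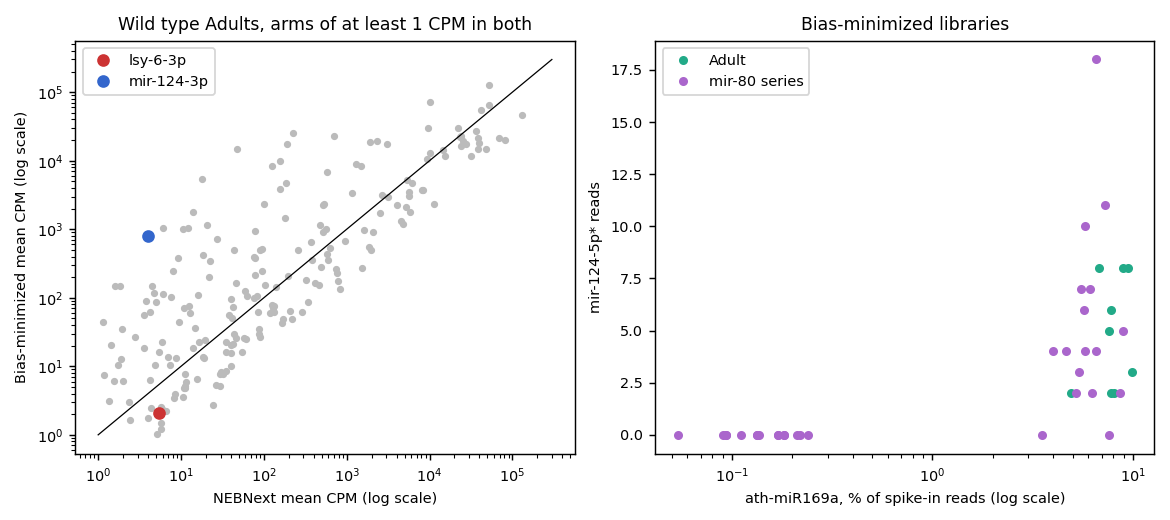
Left, mean CPM of each arm in wild type Adults with NEBNext (x) and bias-minimized adaptors (y), both on log scales, with the line of equal values; mir-124-3p stands 196-fold above the line and lsy-6-3p below it. Right, reads of mir-124-5p* in each bias-minimized library against the share of spike-in reads from ath-miR169a (log scale); every library under 1% had 0 reads.

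Ranks by CPM are given as shares of reads within a protocol and do not order the members by abundance, given the protocol ratios above. With NEBNext mir-137-3p had the most reads of the 3 members and ranked 63rd of 276 arms in wild type L4 larvae (572 CPM) and 74th in Adults (264 CPM). lsy-6-3p ranked 168th and 179th and mir-124-3p 175th and 189th, so that 2 to 44 reads of either stood behind each wild type, tagged or cdb330 Adult value. With bias-minimized adaptors mir-124-3p ranked 71st in wild type Adults, mir-234-3p 138th (59.0 CPM) and lsy-6-3p 217th.

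In drsh-1 (cdb328), lsy-6-3p and mir-137-3p were higher than in wild type at both stages with NEBNext, while mir-124-3p was not called. lsy-6-3p was at 41.0, 35.1 and 37.4 CPM in cdb328 L4 larvae, against 9.49, 15.5 and 15.5 CPM in wild type. No cdb328 library reached down to the wild type range. The rise was 3.17-fold (log2 fold change 1.66 ± 0.25 SE, 95% interval 1.16 to 2.17, edgeR adjusted p = 4.01e-06, n = 3 per group). In Adults lsy-6-3p was at 17.4, 12.8 and 9.82 CPM in cdb328 and at 5.22, 5.01 and 6.10 CPM in wild type. The groups again did not overlap, and the log2 fold change was 1.18 ± 0.33 (0.50 to 1.86, edgeR adjusted p = 0.00442, n = 3 per group), which turned to -0.34 when libraries were scaled to mir-62-3p.

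mir-137-3p rose by nearly the same factor at both stages. It was at 804, 770 and 836 CPM in cdb328 L4 larvae and at 595, 567 and 554 CPM in wild type. In Adults the values were 455, 466 and 452 CPM in cdb328 and 250, 261 and 280 CPM in wild type. The groups were apart at each stage. The log2 fold changes were 0.68 ± 0.10 at L4 (0.46 to 0.89, edgeR adjusted p = 5.60e-06) and 0.70 ± 0.10 in Adults (0.48 to 0.91, adjusted p = 5.24e-06; n = 3 per group), and both turned negative, to -0.41 and -0.87, when scaled to mir-62-3p.

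The scale matters here because mir-62, a mirtron freed by splicing without Drosha, itself rose in cdb328 on the TMM scale. Its log2 fold change was 1.08 ± 0.14 in L4 larvae and 1.51 ± 0.14 in Adults. Scaling to mir-62-3p moved the median of all 215 arms by -1.08 and -1.54. On that scale lsy-6-3p at 0.57 and -0.34 and mir-137-3p at -0.41 and -0.87 all lay above the median arm. Scaling to the plant spike-ins moved the median by -0.27 at L4 and -0.12 in Adults. It left the direction of both arms as it was, with mir-137-3p at L4 no longer called (0.41, edgeR adjusted p = 0.0782).

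mir-124-3p was at 10.02, 7.30 and 12.7 CPM in cdb328 L4 larvae and at 8.67, 8.47 and 12.3 CPM in wild type, and the groups overlapped. In Adults all 3 cdb328 libraries (8.46, 6.13 and 6.25 CPM) lay above all 3 of wild type (1.86, 5.01 and 5.16 CPM). Neither difference passed the test, with log2 values of 0.24 ± 0.31 (-0.40 to 0.88, edgeR adjusted p = 0.538) and 0.71 ± 0.39 (-0.10 to 1.52, adjusted p = 0.139; n = 3 per group). The intervals reach past the size of the rise of mir-137-3p, so at 5 to 32 reads per library a change of that size was not excluded. At both stages 2 of the 3 members tested were called, both higher, where 57.2% of all arms were called at L4 (31.2% higher) and 49.3% in Adults (18.1% higher). All cdb328 libraries lay above all of wild type for 24.2% of arms at L4 and 27.9% in Adults.

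**Figure D2:**
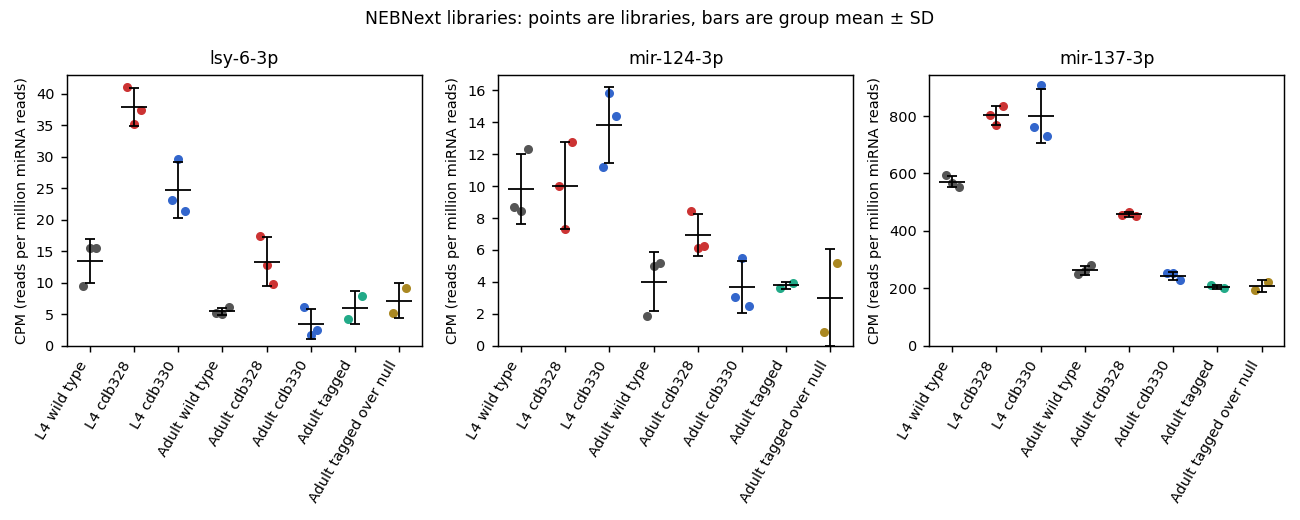
Level in CPM (y, from 0) of the 3p arm of lsy-6, mir-124 and mir-137 in each NEBNext library, by stage and genotype (x), with the group mean and SD as bars. lsy-6-3p and mir-137-3p are above wild type in cdb328 at both stages and in cdb330 at L4 on the CPM scale (on a mir-62-3p scale not mir-137-3p in cdb328, nor lsy-6-3p in cdb328 Adults), and every group has lower levels in Adults than in L4 larvae of its genotype except for overlapping mir-124-3p in cdb328.

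The bias-minimized Adults gave mir-124-3p 716 to 2471 reads per library, and there its rise in cdb328 passed the test. It was at 1683, 1410 and 1653 CPM in cdb328 and at 897, 768 and 687 CPM in wild type, with no overlap. The log2 fold change was 1.14 ± 0.13 (0.84 to 1.45, edgeR adjusted p = 0.000472, n = 3 per group). It was still positive but not called when scaled to mir-62-3p (0.20, adjusted p = 0.201) or to the spike-ins (0.63, adjusted p = 0.0511), which moved the median arm by -0.95 and -0.49. Of all 191 arms, 49.2% were called and 24.1% were higher, and 20.4% had all cdb328 libraries above all of wild type.

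lsy-6-3p was at 10.3, 7.99 and 13.8 CPM (13, 14 and 8 reads) in cdb328 and at 0.616, 1.80 and 3.84 CPM (1, 2 and 4 reads) in wild type with this protocol. The groups did not overlap, but the arm passed the filter on low counts only through its cdb328 libraries, so that it had to differ to be tested. Its log2 fold change, 2.49 with an interval of 0.98 to 4.01 (n = 3 per group), is therefore a description, and no call is counted from it.

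mir-234-3p, the worm relative of miR-137, was at 96.4, 127 and 93.3 CPM in cdb328 Adults and at 60.4, 46.7 and 70.0 CPM in wild type. The groups were apart, and the log2 fold change was 0.97 ± 0.20 (0.51 to 1.44, edgeR adjusted p = 0.00569, n = 3 per group). It was 0.49 with spike-in scaling and 0.02 on the mir-62-3p scale, not called on either.

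**Figure D3:**
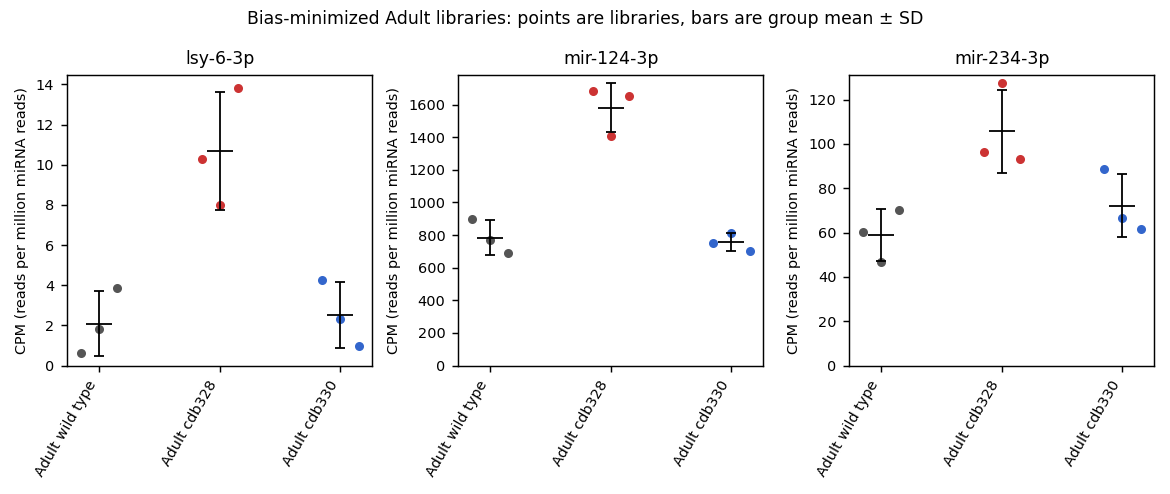
Level in CPM (y, from 0) of lsy-6-3p, mir-124-3p and mir-234-3p in each bias-minimized Adult library by genotype (x), with the group mean and SD as bars. The 3 cdb328 libraries lie above all wild type and cdb330 libraries for each arm on the CPM scale. lsy-6-3p passed the low-count filter only through its cdb328 libraries, so its gap is a description. cdb330 overlaps wild type.

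Markers of other tissues moved in cdb328 too. The muscle miRNA mir-1, the single hairpin of its list, held 134215 to 155653 CPM in cdb328 L4 larvae against 107073 to 124886 CPM in wild type, and 102247 to 114849 CPM against 73513 to 93881 CPM in NEBNext Adults. The glial mir-228 held 13624 to 14072 CPM against 12252 to 12656 CPM at L4 and 7677 to 7936 CPM against 5594 to 6483 CPM in Adults. Epidermal lin-4 and let-7 summed to 17300 to 18632 CPM against 16382 to 16844 CPM at L4. On the fitted scale 1 of 2 muscle, 1 of 2 intestinal, 1 of 2 glial and 1 of 3 epidermal arms were called higher at L4. In Adults 1 of 2 glial arms was called higher, and 0 of 2 muscle, 0 of 2 intestinal and 0 of 3 epidermal arms were called. The summed level of the embryonic list, 8 hairpins of the mir-35 to mir-42 family, overlapped between cdb328 and wild type at both stages with NEBNext. Of its 16 arms, 6 were called higher at L4, where 31.2% of all arms were higher. In Adults 5 were called lower and 1 higher, where 67 of all 215 arms were lower and 18.1% were higher.

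In the bias-minimized Adults, where mir-124-3p and mir-234-3p were higher, the embryonic list was lower in cdb328, at 109741 to 122640 CPM against 133482 to 148167 CPM, with 6 of 16 arms called lower. Of all 191 arms, 48 were called lower. Glial mir-228 was at 2117 to 2899 CPM against 1513 to 2074 CPM and intestinal mir-60 at 22270 to 24773 CPM against 16704 to 20092 CPM, both higher without overlap. Muscle and epidermal lists overlapped there. All of these lists had reads in every library, and their part in the members' rises was not tested.

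The list of other neuron-expressed miRNAs was mir-2, mir-71, mir-234 and mir-791. It had 6 arms tested with NEBNext, of which 0 were called higher and 3 lower in cdb328 at each stage. None of the 6 was of mir-234, which is not named with NEBNext. mir-137-3p, named there instead, was called higher at both stages. Of all 215 arms, 56 were called lower at L4 and 67 in Adults. The median log2 fold change of the 6 arms was -0.64 at L4 and -0.66 in Adults, against 0.04 and -0.03 over all arms. mir-2-3p, of a family with broad neuronal expression, fell by 0.66 ± 0.17 at L4 (edgeR adjusted p = 0.00165) and by 0.87 ± 0.17 in Adults (adjusted p = 0.000184). mir-71-5p, a miRNA that acts in neurons and intestine in ageing, fell by 4.57 at L4 and fell by 5.26 in Adults. mir-791-3p, which is expressed in carbon dioxide-sensing neurons, was at 1.91 ± 0.0827 CPM in cdb328 and 3.40 ± 1.05 CPM in wild type L4 larvae (SD, n = 3) and was not called (edgeR adjusted p = 0.435). In the bias-minimized Adults 5 arms were tested, of which mir-234-3p was called higher and 4 arms lower. Of all 191 arms there, 46 were called higher and 48 lower.

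In drsh-1 (cdb330), lsy-6-3p and mir-137-3p were higher than in wild type at L4, and no member was called in Adults. At L4 lsy-6-3p was at 23.1, 29.7 and 21.4 CPM, above the 9.49 to 15.5 CPM of wild type. mir-137-3p was at 762, 908 and 731 CPM, above the 554 to 595 CPM of wild type. mir-124-3p was at 11.2, 15.8 and 14.4 CPM and overlapped the wild type libraries. The log2 fold changes were 0.76 ± 0.25 for lsy-6-3p (0.24 to 1.28, edgeR adjusted p = 0.0246), 0.38 ± 0.10 for mir-137-3p (0.17 to 0.59, adjusted p = 0.00599) and 0.40 ± 0.29 for mir-124-3p (-0.20 to 1.00, adjusted p = 0.345; n = 3 per group). Thus 2 of 3 members were called higher, where 30.7% of all arms were called, 10.2% were higher and 27.4% had all cdb330 libraries higher. Spike-in scaling moved the median arm by 0.68, and all 3 members lay above it and were called (1.43, 1.06 and 1.08 for lsy-6-3p, mir-137-3p and mir-124-3p). Without a filter on low counts both calls were lost (0.68 for lsy-6-3p and 0.30 for mir-137-3p, edgeR adjusted p = 0.0507 for each). On the TMM scale the call of lsy-6-3p was also lost without wild type replicate 1 (0.61, adjusted p = 0.120) and without cdb330 replicate 2 (0.67, adjusted p = 0.0970).

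The cdb330 L4 larvae also stood apart in their embryonic miRNAs. The summed level of the mir-35 to mir-42 family was 16014 to 25753 CPM there, against 58028 to 78176 CPM in wild type and 72293 to 81220 CPM in cdb328 L4 larvae. Glial mir-228 was higher in cdb330 (14579 to 17854 CPM) than in wild type (12252 to 12656 CPM), as was muscle mir-1 (132077 to 139352 against 107073 to 124886 CPM). Epidermal lin-4 and let-7 summed to 18925 to 23156 CPM against 16382 to 16844 CPM, and intestinal mir-60 was at 2324 to 3201 CPM against 2002 to 2258 CPM. On the fitted scale 0 of 2 arms were called for each of the glial, muscle and intestinal lists. Of 3 epidermal arms 1 was called higher, and 14 of 16 embryonic arms were called lower. Of all 215 arms, 22 were called higher and 44 lower. The part of these differences in the members' rise was not tested, and the labels give no age within L4.

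In NEBNext Adults of cdb330, 0 of 3 members were called by edgeR, 0 by DESeq2 and 0 at an unadjusted p under 0.05. lsy-6-3p was at 6.16, 1.70 and 2.47 CPM (14, 4 and 6 reads), mir-124-3p at 3.08, 5.52 and 2.47 CPM and mir-137-3p at 253, 253 and 228 CPM. Each range overlapped wild type. The log2 fold changes were -0.67 (-1.52 to 0.19, edgeR adjusted p = 0.382), -0.09 (-0.98 to 0.80, adjusted p = 0.936) and -0.11 (-0.33 to 0.10, adjusted p = 0.515), with 7.44% of all arms called. For mir-137-3p the interval leaves out a rise as large as in cdb328. The bias-minimized Adults gave -0.08 (-0.38 to 0.23, edgeR adjusted p = 0.858) for mir-124-3p, from 752, 814 and 705 CPM in cdb330. They gave 0.40 (-1.15 to 1.95, adjusted p = 0.858) for lsy-6-3p, from 10, 6 and 1 reads. Of all arms, 0.524% were called in that comparison.

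The cdb330 effect differed between stages for 2 of the 3 members, where 16.3% of all arms were called and 6.05% were lower. The effect in Adults minus that at L4 was -1.43 ± 0.48 on the log2 scale for lsy-6-3p (-2.43 to -0.43, edgeR adjusted p = 0.0443) and -0.49 ± 0.15 for mir-137-3p (-0.79 to -0.19, adjusted p = 0.0225; n = 3 in each of 4 groups). For mir-124-3p it was -0.49 ± 0.52 (-1.56 to 0.59, adjusted p = 0.552). Both calls were lost without a filter on low counts (-1.37 and -0.44, edgeR adjusted p = 0.0560 and 0.0668), and that of lsy-6-3p with a replicate block (adjusted p = 0.0521). Leaving out 1 library ended the call of lsy-6-3p for wild type L4 replicate 1, wild type Adult replicates 1 and 2, cdb330 L4 replicates 1 and 2 and cdb330 Adult replicates 2 and 3 (-1.51 to -1.12, edgeR adjusted p = 0.0540 to 0.129). That of mir-137-3p was lost without cdb330 L4 replicate 2 or cdb330 Adult replicate 3 (adjusted p = 0.0649 and 0.0593). In cdb328 no member's effect was called different between stages, with -0.49, 0.47 and 0.02 for lsy-6-3p, mir-124-3p and mir-137-3p (edgeR adjusted p = 0.546, 0.619 and 0.970), where 3.26% of all arms were called.

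Set directly against each other, cdb328 had more lsy-6-3p and mir-137-3p than cdb330. In Adults the log2 differences were 1.85 ± 0.36 for lsy-6-3p (1.09 to 2.60, edgeR adjusted p = 0.000184) and 0.81 ± 0.11 for mir-137-3p (0.59 to 1.03, adjusted p = 6.83e-07), with groups that did not overlap (n = 3 per group). mir-124-3p, at 0.80 ± 0.40 (-0.03 to 1.63, adjusted p = 0.111), did not pass although its groups were apart, and it passed without cdb330 replicate 2 (1.23, adjusted p = 0.0378). At L4 the difference was 0.91 ± 0.23 for lsy-6-3p (0.44 to 1.38, edgeR adjusted p = 0.00137) and 0.30 ± 0.10 for mir-137-3p (0.09 to 0.51, adjusted p = 0.0141), but spike-in scaling, which moved the median arm by -0.95, turned both to -0.04 and -0.65. The mir-137-3p libraries overlapped at L4, its call was lost without cdb328 replicate 1 or 3 (edgeR adjusted p = 0.0542 and 0.0553), and its value was 0.01 with total counts. It was also not called without a filter (0.20, adjusted p = 0.145) or with only the groups compared (0.11). Beside the Adult differences, muscle mir-1 was at 102247 to 114849 CPM in cdb328 against 82763 to 93992 CPM in cdb330 and glial mir-228 at 7677 to 7936 CPM against 5799 to 6157 CPM, and their part was not tested. On the fitted scale 0 of 2 muscle arms and 1 of 2 glial arms were called. Of all arms, 40.9% were called in Adults (17.2% higher in cdb328) and 62.3% at L4 (35.3% higher). All cdb328 libraries were higher for 29.8% of arms in Adults and 23.7% at L4.

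All 3 members lay lower in wild type Adults than in wild type L4 larvae, and 2 of them passed the test. mir-137-3p went from 554 to 595 CPM at L4 to 250 to 280 CPM in Adults, a log2 fold change of -0.58 ± 0.10 (-0.80 to -0.37, edgeR adjusted p = 4.56e-05). lsy-6-3p went from 9.49 to 15.5 CPM to 5.01 to 6.10 CPM (-0.78 ± 0.32, -1.45 to -0.12, adjusted p = 0.0359) and mir-124-3p from 8.47 to 12.3 CPM to 1.86 to 5.16 CPM (-0.77 ± 0.36, -1.52 to -0.02, adjusted p = 0.0646; n = 3 per group). These log2 values are on the TMM scale and are smaller than the falls in CPM. Total counts, the scale of CPM, moved the median arm by -0.53 in this comparison. No Adult library reached the L4 range in CPM of any member. The call of lsy-6-3p was lost with DESeq2 (-0.71, adjusted p = 0.0577) and without L4 replicate 2 or 3 or Adult replicate 1 or 2 (edgeR adjusted p = 0.0558 to 0.109). mir-124-3p was called without L4 replicate 1 or 2 or Adult replicate 3 (adjusted p = 0.0363 to 0.0441). Of all arms, 67% were called, 38.1% were lower and 60.9% had all Adult libraries lower.

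The fall with stage was seen in the mutants as well. In cdb328 lsy-6-3p fell by 1.27 on the log2 scale (edgeR adjusted p = 0.000203) and mir-137-3p by 0.56 (adjusted p = 8.84e-05), while mir-124-3p was at -0.30 (adjusted p = 0.489). In cdb330 all 3 passed, with lsy-6-3p falling by 2.21 (edgeR adjusted p = 3.45e-06), mir-124-3p by 1.26 (adjusted p = 0.00302) and mir-137-3p by 1.08 (adjusted p = 3.70e-09). Of all arms, 47.4% were called in cdb328 (31.2% lower) and 70.2% in cdb330 (36.7% lower), and all Adult libraries were lower for 52.1% and 58.1% of arms. Scaling to the spike-ins moved the median arm by -0.75, -0.61 and -1.35 in wild type, cdb328 and cdb330 and left every direction.

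Tissue markers shifted strongly between these stages. In wild type the embryonic family rose from 58028 to 78176 CPM at L4 to 162924 to 187647 CPM in Adults. Glial mir-228 went from 12252 to 12656 CPM to 5594 to 6483 CPM, muscle mir-1 from 107073 to 124886 CPM to 73513 to 93881 CPM and epidermal lin-4 with let-7 from 16382 to 16844 CPM to 6809 to 7626 CPM. The part of these changes in the members' fall was not tested.

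In Adults with drsh-1::gfp and tdp-1::mScarlet, mir-137-3p was at 211 and 201 CPM, below the 250 to 280 CPM of wild type. The log2 difference was -0.33 ± 0.11 (-0.56 to -0.10, edgeR adjusted p = 0.0238, n = 2 against 3). Spike-in scaling turned it to 1.72, where the median of all arms moved by 2.05. Spike-ins made up 13.3% and 13.9% of reads in the tagged libraries and 29.5% to 33.8% in wild type. The tagged libraries held 5224688 and 5565918 miRNA reads, against 2130703 to 2684194 in wild type. These differences between libraries and the strain cannot be told apart. lsy-6-3p was at 4.21 and 7.91 CPM and mir-124-3p at 3.64 and 3.95 CPM, both within or around the wild type libraries (0.19 and -0.02, adjusted p = 0.736 and 0.962). One of 3 members was called, lower, where 32.1% of all arms were called, 20.9% were lower and 31.2% had both tagged libraries lower. The call was lost without wild type replicate 2 and without either tagged library (adjusted p = 0.0561 to 0.206), and also without a filter (-0.33) and with only the groups compared (-0.27). Epidermal lin-4 and let-7 summed to 11593 to 12684 CPM in the tagged strain against 6809 to 7626 CPM in wild type, and intestinal mir-60 was at 1217 to 1229 CPM against 1573 to 2258 CPM, while the muscle, glial and embryonic sums overlapped. On the fitted scale 1 of 2 glial and 1 of 3 epidermal arms were called higher, where 24 of all 215 arms were higher. Of the intestinal arms 1 of 2 was called lower, as were 5 of 16 embryonic arms, and 0 of 2 muscle arms were called. The part of these tissue differences in the lower mir-137-3p was not tested.

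In the tagged genotype over drsh-1(null), mir-137-3p was at 194 and 222 CPM, lsy-6-3p at 5.17 and 9.10 CPM and mir-124-3p at 0.861 and 5.16 CPM (2 and 17 reads). All overlapped the tagged libraries. The log2 differences from the tagged strain were 0.08 (-0.17 to 0.33), 0.33 (-0.46 to 1.12) and -0.15 (-1.19 to 0.90), none called (edgeR adjusted p = 0.820, 0.731 and 0.899), with 4.19% of all arms called.

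In the mir-80 series each drsh-1 mutant was compared with its own control, and mir-124-3p was called in 1 of 6 backgrounds by edgeR and in 4 by DESeq2. With mir-80(cdb493) it was at 2774 and 5376 CPM with drsh-1 mutant and at 1736, 1661 and 1761 CPM with drsh-1 intact. The groups were apart, and the log2 fold change was 1.17 ± 0.32 (0.49 to 1.84, edgeR adjusted p = 0.0121, n = 2 against 3), where 18.4% of all arms were called, 4.35% were higher and 22.7% had all mutant libraries higher. Without drsh-1 mutant replicate 2 it was 0.78 and not called (adjusted p = 0.236), nor was it with spike-in scaling (0.93, adjusted p = 0.206).

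With mir-80 intact, mir-124-3p was at 4633, 3443 and 2124 CPM with drsh-1(cdb263 cdb328) and at 1945, 2503 and 1633 CPM in wild type. The groups overlapped through 1 mutant library. The log2 fold change was 0.63 ± 0.30 (0.02 to 1.24, edgeR adjusted p = 0.133, n = 3 per group), with 20.8% of all arms called, 5.31% higher and 16.9% with all mutant libraries higher. With cdb530 it was at 1326 and 1745 CPM against 1066, 712 and 929 CPM, apart from each other, at 0.85 ± 0.33 (0.18 to 1.53, adjusted p = 0.0506), with 30% of all arms called, 13% higher and 23.2% with all mutant libraries higher. The remaining 3 backgrounds gave 0.63 to 0.81, of which cdb494 and cdb495 had groups apart and cdb496 overlapped (edgeR adjusted p = 0.224, 0.0805 and 0.123; 19.8%, 24.2% and 19.3% of all arms called). In cdb494, cdb495 and cdb496 order, 3.38%, 6.76% and 3.38% of all arms were called higher, and 13.5%, 18.8% and 8.21% had all mutant libraries higher. mir-124-3p was called without drsh-1 intact replicate 1 with cdb494 (1.30, edgeR adjusted p = 0.0238) and cdb530 (1.03, adjusted p = 0.0315), and without mutant replicate 3 with cdb496 (0.94, adjusted p = 0.0226).

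lsy-6-3p was called in 0 of the 6 backgrounds by edgeR and in 0 by DESeq2, with 2 at an unadjusted p under 0.05. With mir-80 intact all mutant libraries (28.7, 23.6 and 24.0 CPM) lay above all of wild type (8.11, 18.3 and 8.88 CPM), at a log2 of 1.02 ± 0.46 (0.06 to 1.97, edgeR adjusted p = 0.116, n = 3 per group). The groups were also apart with cdb493 (0.93) and cdb495 (1.15) and overlapped with cdb496 (0.94) and cdb494 (0.09). In the cdb530 background it had 1 and 0 reads with drsh-1 mutant and 0, 3 and 2 reads with drsh-1 intact, too few for a fold to be given.

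Tissue markers differed between drsh-1 mutant and intact libraries in 4 of these 6 backgrounds. With cdb530, intestinal mir-60 was at 6846 to 11778 CPM with drsh-1 mutant against 13861 to 24658 CPM, and glial mir-228 at 3584 to 4982 CPM against 1322 to 3211 CPM. The embryonic list was higher with drsh-1 mutant and cdb495, at 91246 to 120930 CPM against 53816 to 56216 CPM (8 of 16 arms called higher), with cdb494, at 107066 to 130365 CPM against 78699 to 86781 CPM, and with cdb493, at 95880 to 140469 CPM against 77724 to 88898 CPM. Epidermal lin-4 with let-7 was lower with cdb495 (19872 to 24981 against 26996 to 27244 CPM), and muscle mir-1 higher with cdb494 (30322 to 40204 against 22272 to 29261 CPM). On the fitted scale 0 of 2 muscle arms and 1 of 16 embryonic arms were called with cdb494. With cdb493 2 of 16 embryonic arms were called, and with cdb495 1 of 4 epidermal arms. Of all arms, 19.8%, 18.4% and 24.2% were called with cdb494, cdb493 and cdb495. With mir-80 intact and cdb496 the summed levels of all 5 lists overlapped. The part of these differences in the members' levels was not tested.

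**Figure D4:**
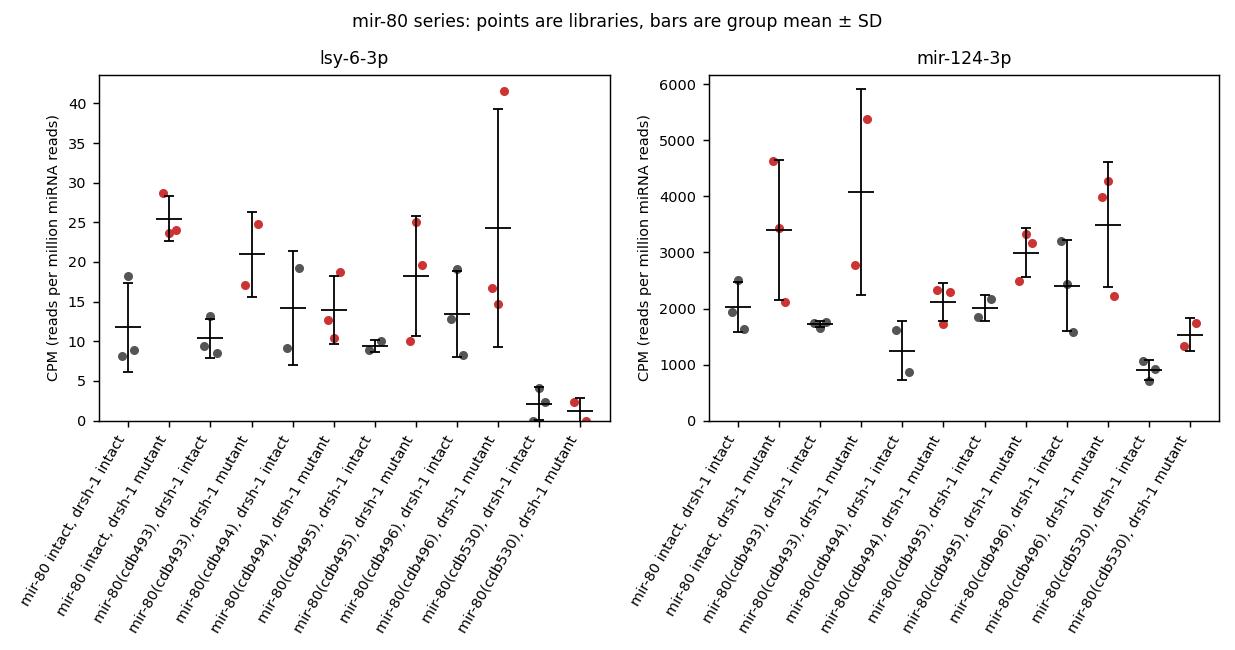
Level in CPM (y, from 0) of lsy-6-3p and mir-124-3p in each library of the mir-80 series by genotype (x), drsh-1 intact in grey and mutant in red, with the group mean and SD as bars. The group means of mir-124-3p are higher with drsh-1 mutant in each of the 6 backgrounds, while lsy-6-3p in both cdb530 groups is at 0 to 4.09 CPM.

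mir-234-3p was called higher in 3 of the 6 backgrounds, with mir-80 intact, cdb493 and cdb496 (log2 0.69, 0.80 and 0.96; edgeR adjusted p = 0.0362, 0.0285 and 0.00353). With mir-80 intact it was at 243, 206 and 158 CPM with drsh-1 mutant and at 92.9, 123 and 139 CPM in wild type, with no overlap. With cdb494, cdb495 and cdb530 it was at 0.21, 0.46 and 0.01 on the log2 scale and was not called. All 3 calls were lost with total counts (edgeR adjusted p = 0.0615 to 0.0871) and with spike-in scaling, those with cdb493 and cdb496 also when only the groups compared were fitted (adjusted p = 0.095 and 0.0771), and with mir-80 intact the value turned to -0.06 on the mir-62-3p scale. The call with mir-80 intact was also lost without wild type replicate 1 or 2 or any 1 mutant library (adjusted p = 0.0565 to 0.149), and that with cdb493 without drsh-1 intact replicate 1 or 3 or mutant replicate 2 (adjusted p = 0.0735 to 0.328).

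Over the 9 comparisons of a genotype with cdb328 against its own control, 3 outside and 6 within the mir-80 series, mir-124-3p was higher on the fitted scale in 9 of 9 (0.24 to 1.17, median 0.71) and called in 2, but it turned to -0.84, -0.77 and -0.07 in 3 of the 4 comparisons rescaled to mir-62-3p (L4 and Adult NEBNext, mir-80 intact) and to -0.04 at L4 on the spike-in scale. lsy-6-3p was called in both NEBNext comparisons and was higher, not called, in 5 of the mir-80 series (0.09 to 1.15), while the comparison with cdb530 rested on 0 to 3 reads per library. Its value in the bias-minimized Adults is left out of this count, since the arm passed the filter there only through the cdb328 libraries. For lsy-6-3p the value with cdb494 turned to -0.03 on the spike-in scale and that of NEBNext Adults to -0.34 on the mir-62-3p scale. mir-137-3p was higher and called in both that measured it, and lower in both on the mir-62-3p scale. mir-234-3p was higher in 7 of 7 and called in 4, but with cdb530 it turned to -0.58 on the spike-in scale and to -0.10 with total counts. Since mir-137 and mir-234 may name the same gene, their rises are not counted as those of separate miRNAs. The libraries were all higher in 6 of 9 for mir-124-3p. Across these comparisons 3.38% to 31.2% of all arms were called higher and 8.21% to 27.9% had all libraries higher. These comparisons share no library, but the NEBNext and bias-minimized Adults may share worms. The mirtron mir-62-3p was higher in 9 of 9 and called in 3.

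**Figure D5:**
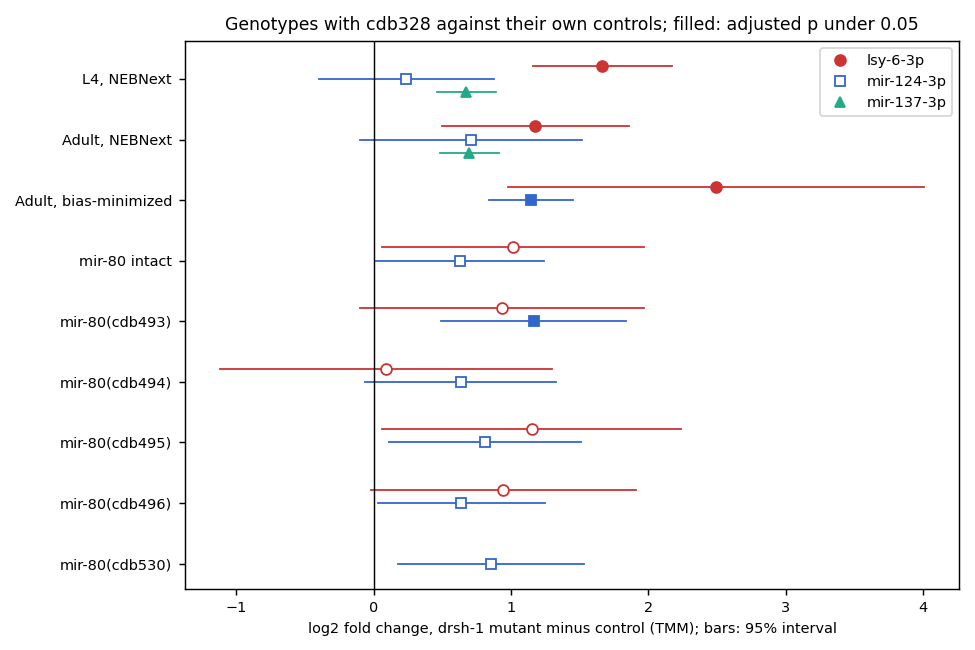
Log2 fold change (x, TMM scale, points) with its 95% interval (lines) of each member's 3p arm in 9 comparisons of a genotype that carries cdb328 with its control (y); filled points have an edgeR adjusted p under 0.05. mir-124-3p is right of 0 in 9 of 9 and lsy-6-3p in the 8 plotted, with cdb530 left out at 0 to 3 reads per library (the filled bias-minimized point of lsy-6-3p is an arm that passed the low-count filter only through its cdb328 libraries); on a mir-62-3p scale the Adult NEBNext value of lsy-6-3p, both values of mir-137-3p and the L4, Adult NEBNext and mir-80 intact values of mir-124-3p lie left of 0, and on a spike-in scale those of mir-124-3p at L4 and lsy-6-3p with cdb494.

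Among mir-80 alleles with drsh-1 intact, compared with the same 3 wild type libraries, a member was called only with cdb530. lsy-6-3p had 0, 3 and 2 reads (0, 4.09 and 2.36 CPM) there and 11, 23 and 3 reads (8.11, 18.3 and 8.88 CPM) in wild type, and the groups were apart. The log2 fold change was -1.86 ± 0.58 (-3.07 to -0.64, edgeR adjusted p = 0.0379, n = 3 per group), and the call was lost without wild type replicate 2 or 3 or cdb530 replicate 1 or 3 (adjusted p = 0.0553 to 0.136), with DESeq2 (0.0823) and with a term for the library split described below (-1.90). mir-124-3p, at 1066, 712 and 929 CPM against 1633 to 2503 CPM, was at -0.88 ± 0.30 (-1.49 to -0.26, adjusted p = 0.0524), and was called without wild type replicate 1 or 3 or cdb530 replicate 1 (adjusted p = 0.0326 to 0.0402). Of all arms, 12.6% were called with cdb530, 8.21% were lower and 26.6% had all cdb530 libraries lower.

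Other markers differed between cdb530 and wild type as well. Glial mir-228 was at 1322 to 3211 CPM against 3549 to 4488 CPM, muscle mir-1 at 15510 to 21611 CPM against 23278 to 30881 CPM, and epidermal lin-4 with let-7 at 13690 to 19272 CPM against 21307 to 26918 CPM. On the fitted scale 0 of 2 glial, 0 of 2 muscle and 0 of 4 epidermal arms were called. The intestinal and embryonic sums overlapped, but 1 of 2 intestinal and 4 of 16 embryonic arms were called higher, where 12.6% of all arms were called. The part of these differences in the members' levels was not tested. With cdb493 to cdb496 the log2 values were -0.37 to 0.11 for lsy-6-3p and -0.62 to 0.05 for mir-124-3p, with 0.966% to 5.80% of all arms called.

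mir-124-5p* followed a split among bias-minimized libraries that the labels do not name. The plant spike-in ath-miR169a made up 0.0539% to 0.238% of spike-in reads in 15 libraries and 3.53% to 9.86% in the other 26. mir-124-5p* had 0 reads in all 15 of the first kind, which held 13350489 miRNA reads together, so that 3 reads would be 0.225 CPM. It had reads in 24 of the 26 others, 133 in all or 4.93 CPM, and the 2 without had 155736 and 211102 miRNA reads. All 9 Adult libraries and all 5 cdb530 libraries were of the second kind, and all 3 wild type libraries of the mir-80 series of the first. For this reason no fold change of mir-124-5p* is given in the series, and between cdb530 and wild type the kind of library and the genotype cannot be told apart.

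The main arms were counted in both kinds of library, but not at equal levels. In every group that held both kinds, the mean of mir-124-3p was lower in the second kind. With cdb496 and drsh-1 intact, for example, it was at 1577 CPM in the second kind and at 2433 and 3201 CPM in the first. With mir-80 intact, the drsh-1 mutant libraries of the first kind had 4633 and 3443 CPM of mir-124-3p, above the 1633 to 2503 CPM of wild type, and the mutant library of the second kind had 2124 CPM. With cdb493, mir-124-3p was higher with drsh-1 mutant within each kind, at 5376 against 1761 CPM in the first and 2774 against 1661 and 1736 CPM in the second. It was also higher within each kind with cdb495, at 3162 against 2171 CPM and at 2497 and 3335 against 1840 CPM. With cdb494 it was higher within the second kind, at 1729 and 2293 against 873 and 1626 CPM. With cdb496 all mutant libraries were of the first kind, and their 2229 to 4276 CPM overlapped the 2433 and 3201 CPM of drsh-1 intact. For lsy-6-3p the corresponding values with mir-80 intact were 28.7 and 23.6 CPM against 8.11 to 18.3 CPM in the first kind, and 24.0 CPM in the mutant library of the second.

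Over the 22 NEBNext libraries the members varied together, with Pearson's r of log2 CPM of 0.838 for lsy-6-3p with mir-137-3p, 0.740 for mir-124-3p with mir-137-3p and 0.603 for lsy-6-3p with mir-124-3p. The libraries share stage and genotype, so these values are descriptions. The arms with the highest r to lsy-6-3p were mir-76-3p (0.885), mir-1821-3p (0.885) and mir-795-3p* (0.845). To mir-124-3p they were mir-247-3p (0.820), mir-137-3p (0.740) and mir-76-3p (0.723), and to mir-137-3p they were mir-245-3p (0.929), mir-76-3p (0.920) and mir-259-3p* (0.901). mir-76-3p stood in all 3 lists.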

How the data were processed

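Total RNA of whole worms was extracted with Trizol and small RNA was cloned with the NEBNext kit or a bias-minimized protocol with degenerate-base adaptors, per the labels' protocols. The submitters' processing notes name HTSeq without a version. No source used here gives the aligner, read filters or genome build. The authors deposited estimated counts (expected counts), that is, unnormalized reads per mature arm and per plant spike-in. Some values of other miRNAs end midway between whole numbers and were rounded. Every value of the members was whole.

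Counts without spike-ins were tested with edgeR 4.0.16 (R 4.3.3, limma 3.58.1): TMM, filterByExpr (minimum count 10, minimum total 15), glmQLFit and glmQLFTest with a coefficient per group, and Benjamini-Hochberg adjustment over all arms tested. Separate fits held 18 NEBNext libraries (215 arms), all 22 for the tagged strains (215), 9 bias-minimized Adults (191) and the 32 of the mir-80 series (207). Each standard error was derived from the F statistic and the fold change. The procedure was tested on simulated data. Pairs of libraries of 1 group (57) were compared by a chi-square test, whose lowest value over its degrees of freedom was 17.5. No pair therefore looked like a repeat count of a single library. The test cannot tell whether libraries came from separate cultures, and each was counted as 1 sample. Counting limits (3 reads) cover counting error only.

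The text names both arms of lsy-6, mir-124 and mir-137, mir-234 and mir-62-3p, fixed lists of other neuronal and tissue miRNAs (muscle, intestine, glia, embryo and epidermis), and the 3 arms most like each member. The likeness is Pearson's r of log2 CPM with a prior count of 2. Members and lists were chosen with earlier results of these data known. The intestinal list, mir-60, was at 2045 to 2700 CPM in cdb328 and 2002 to 2258 CPM in wild type L4 larvae.

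Replicate numbers were taken to pair libraries where every pair's deviations correlated above 0.1. This held for the bias-minimized Adults (r of 0.538 to 0.615 for cdb328 and 0.103 to 0.809 for cdb330) and for mir-80(cdb493) against wild type (0.349 to 0.792), but not for NEBNext. Alternatives were other scalings, no filter, DESeq2 1.42.0, fewer groups, a replicate block and leaving out each library.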

Additional observations from a re-analysis of the deposited data

Results flagged for a closer look

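The effect of drsh-1 (cdb330) differed between Adults and L4 larvae by a direct test of the difference for lsy-6-3p (-1.43 on the log2 scale, edgeR adjusted p = 0.0443) and mir-137-3p (-0.49, adjusted p = 0.0225). lsy-6-3p in cdb330 was at 23.1, 29.7 and 21.4 CPM at L4 and at 6.16, 1.70 and 2.47 CPM in Adults, and in wild type it was at 9.49 to 15.5 CPM and 5.01 to 6.10 CPM. Beside this, the embryonic mir-35 to mir-42 family was at 16014 to 25753 CPM in cdb330 L4 larvae, against 58028 to 78176 CPM in wild type, while in Adults it was at 159276 to 170300 CPM and 162924 to 187647 CPM. The part of that difference was not tested. With spike-in scaling, which moved the median difference of all arms by -0.59, the values were -2.01 and -1.09. Both calls were lost without a filter on low counts (-1.37 and -0.44), and that of lsy-6-3p with a replicate block (edgeR adjusted p = 0.0521). Leaving out 1 library ended the call of lsy-6-3p in 7 of 12 cases and that of mir-137-3p in 2 of 12.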

How the results depend on the processing

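Each value was recomputed under up to 10 kinds of setting. Of 881 recomputed values, 796 stayed on their side of the threshold, with an unchanged direction where the main value was called. For main values that were not called, a change of direction was not counted. Scaling to mir-62-3p gave, for cdb328 against wild type, 0.57 (lsy-6-3p), -0.84 (mir-124-3p, called) and -0.41 (mir-137-3p) at L4, -0.34 (lsy-6-3p) and -0.87 (mir-137-3p) in NEBNext Adults, and 1.56 (lsy-6-3p) and 0.20 (mir-124-3p) in bias-minimized Adults. Every arm is then read relative to 1 miRNA that was itself higher in cdb328.

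Spike-in scaling reversed cdb328 against cdb330 at L4 (lsy-6-3p -0.045, mir-137-3p -0.65; mir-124-3p -1.12, called) and tagged against wild type for mir-137-3p (1.72; lsy-6-3p 2.22 and mir-124-3p 2.03, called). It ended the calls of mir-137-3p in cdb328 L4 larvae (0.41), of mir-124-3p in cdb328 bias-minimized Adults (0.63) and of mir-124-3p with mir-80(cdb493) (0.93). It added calls of mir-124-3p in cdb330 at L4 (1.08), in Adults against L4 of wild type (-1.53) and cdb328 (-0.89), and in cdb530 against wild type (-1.40). Total counts gave 0.0056 for mir-137-3p in cdb328 against cdb330 at L4, and calls of mir-124-3p at -1.29 (wild type Adults against L4) and -1.17 (cdb530 against wild type).

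For lsy-6-3p in wild type Adults against L4, DESeq2 gave -0.71 and its size factors in edgeR -0.70, neither called; for cdb530 against wild type DESeq2 gave -1.96, not called. The size factors gave -0.26 for mir-137-3p in the tagged strain, not called. For mir-124-3p DESeq2 called drsh-1 mutants with cdb495 (0.93), cdb496 (0.75) and cdb530 (0.96) and cdb530 against wild type (-0.97), and the size factors in edgeR called cdb495 (0.93), cdb530 (0.95) and cdb530 against wild type (-0.96). Without a filter, more arms were tested and calls were lost for lsy-6-3p (0.68) and mir-137-3p (0.30) in cdb330 at L4, mir-137-3p in cdb328 against cdb330 at L4 (0.20), the stage differences of cdb330 (-1.37 for lsy-6-3p, -0.44 for mir-137-3p) and mir-137-3p in the tagged strain (-0.33), and mir-124-3p was called with cdb495 (0.93). With only the groups compared, mir-137-3p lost its calls in cdb328 against cdb330 at L4 (0.11) and in the tagged strain (-0.27), and calls were added for lsy-6-3p with mir-80 intact (1.03) and cdb495 (1.20) and for mir-124-3p with cdb495 (0.83).

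With a replicate block, the stage difference of lsy-6-3p in cdb330 was -1.43 and not called (adjusted p = 0.0521), in libraries that share only a number. In the paired bias-minimized Adults the block gave 1.15 for mir-124-3p, still called, and 2.55 for lsy-6-3p, which passed the filter only through cdb328, and it changed no other call of a member. A term for the ath-miR169a split, chosen after seeing the data, gave 0.85 for mir-124-3p with cdb530 (called) and -1.90 for lsy-6-3p in cdb530 against wild type (not called).

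Leaving out 1 library at a time changed calls within these ranges. For lsy-6-3p they were -1.08 to -0.66 (wild type Adults against L4), 0.61 to 0.98 (cdb330, L4), -2.40 to -1.57 (cdb530 against wild type) and -2.10 to -1.12 (stage difference of cdb330). In cdb328 bias-minimized Adults, where it passed the filter only through cdb328, it ranged from 1.96 to 3.26. For mir-124-3p they were -0.98 to -0.47 (wild type Adults against L4), 0.58 to 1.23 (cdb328 against cdb330, Adults), -1.04 to -0.71 (cdb530 against wild type) and, for drsh-1 mutants, 0.78 to 1.43 (cdb493), 0.17 to 1.30 (cdb494), 0.43 to 0.94 (cdb496) and 0.60 to 1.03 (cdb530). For mir-137-3p they were 0.26 to 0.36 (cdb328 against cdb330, L4), -0.68 to -0.45 (stage difference of cdb330) and -0.39 to -0.27 (tagged strain). A library left alone in its group was assumed to vary like the other groups. Where no reason is given, the cause was not tested. Counting error weighs most on the values with the fewest reads, those of lsy-6-3p (0 to 94 reads per library) and of mir-124-3p with NEBNext (2 to 40).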
